A study of Homo sapiens with 7 samples.

Results

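Very gene-dense neighbourhoods are stretches of chromosome in which protein-coding genes lie close together, and 5-hydroxymethylcytosine (5hmC) peaks inside them were compared between control and TDP-43 knockdown cells. A peak region belonged to them if its midpoint had at least 30 protein-coding gene midpoints (RefSeq) within 500 kb and lay more than 2 Mb from both ends of its chromosome in hg38. Regions were made by joining overlapping or adjoining peaks of the 6 lists on chromosomes 1 to 22. Of 198010 merged regions, 4501 were members and 193509 were not. The members' median density was 35 genes and their maximum 70, against a median of 5 in the other regions.

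All libraries came from SH-SY5Y, an established human neuroblastoma line of sympathetic character. Cells of the control group carried a lentiviral shRNA named shNC, and those of the knockdown group carried shTDP-43, which targets the RNA- and DNA-binding protein TDP-43. In both groups, selection with puromycin ran at 2 ug/mL for 2 weeks and was followed by 1 ug/mL. Each group had 3 pulldown libraries, and peaks were called in each library separately. The labels name 1 cell line and 1 hairpin against TDP-43. Nothing in them says whether the replicates were separate cultures, and the p-values therefore cover the spread between these libraries alone, which may be technical. Values of a group are given in the order of the replicate numbers, 1 to 3. Peak lists hold no RNA or protein measurement and do not check the knockdown.

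5hmC is made when TET enzymes oxidise 5-methylcytosine, and neurons are known for carrying much of it in the bodies of genes. The assay, 5hmC-Seal, attaches a glucose with a chemical handle to 5hmC, adds biotin and pulls the labelled fragments down. A called peak marks a stretch where such fragments pile up, and the lack of a peak is not the lack of 5hmC. Gene-dense neighbourhoods are rich in G and C bases, replicate early and hold many short, widely expressed genes beside clustered families such as histones, keratins and protocadherins.

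The lists held 116601 to 155151 autosomal peaks per control library and 118597 to 140974 per knockdown library, of which 3063 to 3576 and 2563 to 2826 lay in members. Read depth is unknown. The median −log10 p-value that the authors gave to peaks with a fold of 4.9 to 5.1, which moves with depth, was 13.8, 13.6 and 11 in the control libraries and 12.5, 8.25 and 9.82 in the knockdown libraries (exact permutation p = 0.2), so the groups overlapped in it. Its part in the results on presence and width was not tested. Markers written down for the cell line were only partly under peaks: of 8 noradrenergic neuroblastoma genes, 4 had peaks in all 6 lists, while HAND2 and PHOX2A were among those with none. Of 4 blood genes, 2 had peaks in all lists and CD3E and CD79A had none. Peaks do not report expression, so these lists do not identify the cells.

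The promoters whose peaks differed between groups, or were covered in every list, are shown first, with the sequence before the gene start. Overlap was counted over windows that also hold 50 bases after the start, which are not printed, so a short overlap may lie outside the printed bases. Of 2253 promoter windows (250 bases before to 50 after a RefSeq gene start) in gene-dense neighbourhoods, 7 had a peak in 3 of 3 control and 0 of 3 knockdown libraries, or 0.311%, and 1 showed the opposite, or 0.0444%. Over all 15101 windows the percents were 0.437 and 0.0397, so the gene-dense shares lay near the background. The 250 bases before the start follow for the 6 with the longest overlap, from RefSeq on GRCh38.p14, read 5′ to 3′ along the gene, with each CG, the site of most cytosine methylation, in capitals.
ASIC3, chr7:151048042-151048291, plus strand: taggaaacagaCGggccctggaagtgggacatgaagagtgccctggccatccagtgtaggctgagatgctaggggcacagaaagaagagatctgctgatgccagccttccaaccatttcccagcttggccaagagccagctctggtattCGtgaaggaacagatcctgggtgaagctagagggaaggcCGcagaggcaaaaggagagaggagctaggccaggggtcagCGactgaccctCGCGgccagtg
S100A2, chr1:153565845-153566094, minus strand: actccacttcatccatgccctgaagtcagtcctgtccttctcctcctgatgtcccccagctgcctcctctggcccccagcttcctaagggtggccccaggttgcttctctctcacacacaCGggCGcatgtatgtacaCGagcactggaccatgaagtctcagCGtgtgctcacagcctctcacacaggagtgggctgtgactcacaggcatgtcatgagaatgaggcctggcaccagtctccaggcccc
STAP2, chr19:4338828-4339077, minus strand: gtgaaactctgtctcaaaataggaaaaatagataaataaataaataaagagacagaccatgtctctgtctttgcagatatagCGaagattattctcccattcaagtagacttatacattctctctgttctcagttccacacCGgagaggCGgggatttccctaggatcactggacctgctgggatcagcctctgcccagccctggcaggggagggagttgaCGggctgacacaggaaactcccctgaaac
ROM1, chr11:62613007-62613256, plus strand: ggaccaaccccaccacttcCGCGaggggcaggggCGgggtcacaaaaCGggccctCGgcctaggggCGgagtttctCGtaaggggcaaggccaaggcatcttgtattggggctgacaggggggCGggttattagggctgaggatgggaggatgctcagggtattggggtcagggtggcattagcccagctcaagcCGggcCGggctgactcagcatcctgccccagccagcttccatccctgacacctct
GADD45GIP1, chr19:12957224-12957473, minus strand: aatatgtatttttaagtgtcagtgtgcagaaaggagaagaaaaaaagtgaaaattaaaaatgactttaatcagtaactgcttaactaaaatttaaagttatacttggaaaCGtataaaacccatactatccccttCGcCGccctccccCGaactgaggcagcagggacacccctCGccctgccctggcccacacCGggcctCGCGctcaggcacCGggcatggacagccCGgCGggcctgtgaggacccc
NFIX, chr19:12995225-12995474, plus strand: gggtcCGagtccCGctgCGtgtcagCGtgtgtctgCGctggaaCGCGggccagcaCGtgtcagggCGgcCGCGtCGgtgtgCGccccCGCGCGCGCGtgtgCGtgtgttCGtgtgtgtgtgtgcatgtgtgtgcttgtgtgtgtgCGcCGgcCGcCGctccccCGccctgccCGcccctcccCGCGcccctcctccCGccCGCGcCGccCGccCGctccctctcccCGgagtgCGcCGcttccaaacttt

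In the window of ASIC3, which encodes an acid-sensing ion channel, peaks covered all 300 bases in each control list and 0 bases in each knockdown list. The window of S100A2, a calcium-binding protein of epithelia, gave the same values, 300 bases in each control list and 0 in each knockdown list. STAP2, a signalling adaptor, was the only window of the opposite kind, with 188, 71 and 149 bases covered in the knockdown libraries and 0 in every control. The remaining windows printed were covered only in part. ROM1, a membrane protein of photoreceptors, had 57, 121 and 33 bases covered in the control libraries. GADD45GIP1 had 73, 17 and 18, and NFIX, a transcription factor of the nuclear factor I family, had 34, 18 and 22. RNASE7 and HAUS4, which are not printed, had at most 22 covered bases in any list.

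For contrast, 50 of the 2253 windows had a peak in all 6 lists, 109 had a peak in 1 to 5 lists and 2094 had none. Many of the 50 were covered end to end in every list, and the first 3 of these in alphabetical order are printed in the same way. They belong to B4GALT3, a galactosyltransferase, to CABP4, a calcium-binding protein of photoreceptor synapses, and to CARD9, an adaptor of innate immunity.
B4GALT3, chr1:161177969-161178218, minus strand: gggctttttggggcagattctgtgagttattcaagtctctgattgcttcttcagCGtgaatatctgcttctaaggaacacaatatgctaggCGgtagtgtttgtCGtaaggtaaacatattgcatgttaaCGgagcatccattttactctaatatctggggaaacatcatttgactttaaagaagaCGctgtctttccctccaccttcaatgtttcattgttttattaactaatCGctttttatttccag
CABP4, chr11:67452153-67452402, plus strand: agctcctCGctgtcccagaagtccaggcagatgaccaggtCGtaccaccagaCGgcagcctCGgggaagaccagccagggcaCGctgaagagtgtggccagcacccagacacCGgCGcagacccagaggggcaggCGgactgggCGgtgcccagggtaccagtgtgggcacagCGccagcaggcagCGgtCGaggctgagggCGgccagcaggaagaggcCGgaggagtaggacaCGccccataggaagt
CARD9, chr9:136373670-136373919, minus strand: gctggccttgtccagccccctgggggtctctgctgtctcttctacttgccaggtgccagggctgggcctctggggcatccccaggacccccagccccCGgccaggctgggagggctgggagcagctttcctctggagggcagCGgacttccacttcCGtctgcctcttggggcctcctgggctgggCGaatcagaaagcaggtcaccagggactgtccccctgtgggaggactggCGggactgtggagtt

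The windows printed had 5 to 46 CG dinucleotides within 300 bases, from S100A2 and STAP2 at 5 to NFIX at 46. The motif CG, which reads the same on both strands, was counted without overlap and occurred in 98.1% of all windows. The median count was 13 in the 50 gene-dense windows with a peak in all lists, 13 in those with a peak in some lists and 19 in those without a peak, against 22 over all windows. Their median G and C content was 62.3%, 63.0% and 61.3%. The counts describe these windows and were not tested.

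Fewer members carried a peak in the knockdown lists. The percent of members with a peak was 77.6, 70.5 and 65.4 in the control libraries and 60.2, 53.9 and 58.8 in the knockdown libraries. Every knockdown list lay below every control list, with means of 71.2 ± 6.16 and 57.6 ± 3.32 (SD, n = 3 each). The difference of −13.6 percentage points had an exact two-sided permutation p = 0.1, the smallest that 3 against 3 allow (adjusted p = 0.3 over 9 comparisons). In the other merged regions the percents were 56.0, 76.6 and 60.3 against 68.8, 56.7 and 62.5, and the groups overlapped (exact permutation p = 0.9). When every list was reduced to the same number of its strongest peaks, the members' percents were 84.2, 55.5 and 65.4 against 51.2, 57.2 and 56.5, so that control 2 fell among the knockdowns (exact permutation p = 0.3).

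Measured against the rest of the same list, the groups were not separated. The log2 ratio of the members' percent to that of the other regions was 0.47, −0.12 and 0.12 in the control libraries and −0.19, −0.08 and −0.09 in the knockdown libraries (exact permutation p = 0.3). Members held 3.15%, 2.08% and 2.48% of the bases under autosomal peaks in the controls and 1.98%, 2.15% and 2.13% in the knockdowns. These shares averaged 2.57% ± 0.541 and 2.09% ± 0.0938 (SD, n = 3 each, exact permutation p = 0.3), and control 2 lay inside the knockdown range. Without control 2 the 2 remaining controls lay above all knockdowns in both measures (exact permutation p = 0.2, the smallest possible there). Leaving out control 1 instead reduced the difference in share from −0.483 to −0.192 percentage points (exact permutation p = 0.6). The difference in the log2 ratio went from −0.276 to −0.118 (exact permutation p = 0.6). In absolute length, member bases under peaks were 2.52, 2.29 and 2.09 Mb against 1.94, 1.67 and 1.88 Mb, without overlap (exact permutation p = 0.1).

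The libraries differed in how peak presence followed gene density, within each group as well as between them. Among regions over 2 Mb from chromosome ends, presence in control 1 rose from 36.4% where no gene lay within reach to 78.0% at 30 to 39 genes. In control 2 it fell from 79.6% to 70.9%, and in control 3 it rose from 49.3% to 65.2%. In knockdown 1 it fell from 68.0% to 61.0%, while knockdowns 2 and 3 rose from 49.8% to 54.4% and from 54.1% to 59.2%. With no gene in reach, controls 1 and 2 were the lowest and the highest of the 6 libraries, and at 50 or more genes they stood at 77.4% and 64.4%, above the others. The mean difference between groups was 2.2 percentage points in regions with no gene, −2.06 at 5 to 9 genes, −10.4 at 20 to 29 genes and −14.8 at 50 or more. Just inside the limit, at 30 to 31 genes, 738 regions had means of 69.9% and 57.0%; just outside, at 28 to 29 genes, 1050 regions had 69.5% and 59.6%.

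**Figure D1:**
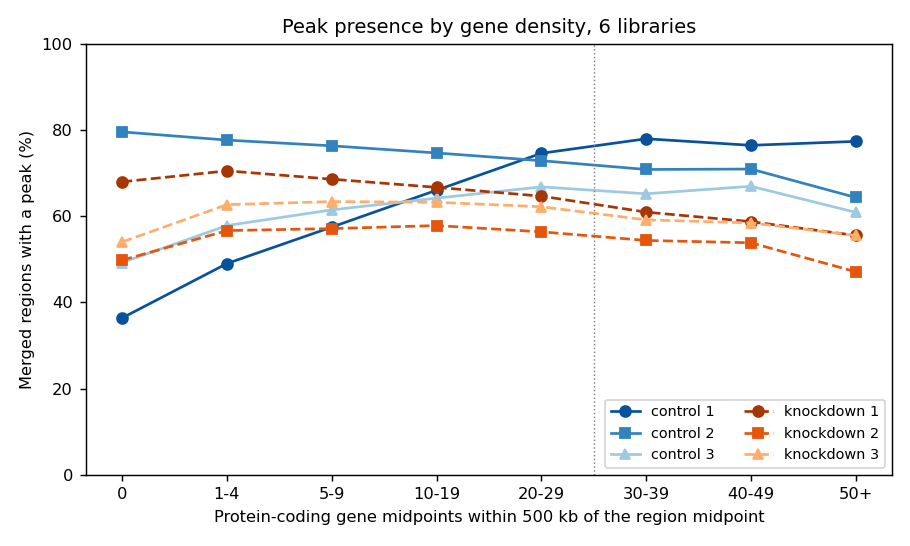
Percent of merged regions with a peak (y axis) in 8 classes of gene density (x axis, number of protein-coding gene midpoints within 500 kb) for the 3 control libraries (blue, solid) and the 3 knockdown libraries (orange, dashed), with members to the right of the dotted line. Control 1 climbs from 36.4% to 78.0% at 30 to 39 genes and control 2 falls from 79.6% to 70.9%, while the 3 knockdown lines lie below the 3 control lines in each class of 20 or more genes, the non-member class of 20 to 29 included.

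Group-specific members, those with a peak in 3 of 3 libraries of their group and 0 of 3 of the opposite one, were mostly of the control kind. There were 179 control-only members, 3.98% of the 4501, against 1.95% of all merged regions. There were 24 knockdown-only members, 0.533%, against 1.06% of all merged regions. The control-only kind made up 88.2% of group-specific members and 64.0% of group-specific regions elsewhere. A peak in all 6 lists was found in 1657 members, or 36.8%, and in 35.7% of the other regions. The share of control-only regions was 1.14% with no gene in reach and 2.65% at 10 to 19 genes. In the non-member class of 20 to 29 genes it was 3.73%, and the control-only kind made up 82.0% of group-specific regions there. At 50 or more genes the share was 3.83%, with 10 regions control-only and 0 knockdown-only. Without control 2 the members held 273 and 48, and the other regions 4904 and 6681, so the majority among the other regions turned and that among the members did not. Leaving out control 1 gave 230 and 45 members, and 6854 and 2726 other regions.

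**Figure D2:**
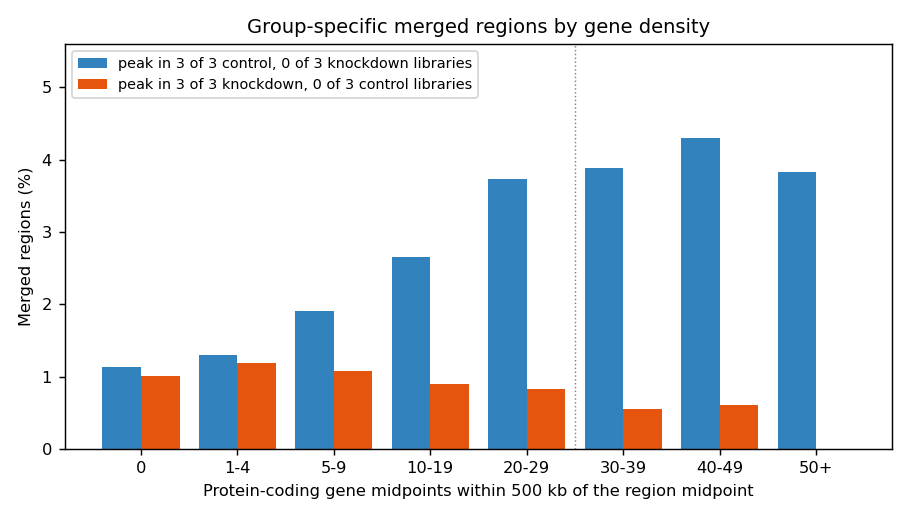
Percent of merged regions (y axis, bars from 0) with a peak in 3 of 3 control and 0 of 3 knockdown libraries (blue) or the reverse (orange), by gene density class (x axis), with members to the right of the dotted line. The blue bars go from 1.14% with no gene in reach to 4.30% at 40 to 49 genes, with 3.73% in the non-member class of 20 to 29. The orange bar is at 0 for 50 or more genes.

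The 5 longest control-only members lay on chromosomes 17 and 19. The longest, chr17:74808376-74809709 in SLC38A12, had 1334, 1186 and 748 bp under peaks in the control libraries. Next was chr17:7041554-7042778 in SLC16A11, a monocarboxylate transporter family gene, with 850, 1107 and 570 bp. The third, chr19:49339452-49340505, overlapped CD37, a tetraspanin of B cells, and SLC6A16, with 1054, 454 and 332 bp. JUP, which encodes the junction protein plakoglobin, held chr17:41777018-41778067, with 1040, 358 and 923 bp. The fifth, chr17:75809117-75810145 in UNK, an RNA-binding protein of neurons, had 1008, 1001 and 367 bp. These were peaks of moderate strength, with −log10 q-values from 3.13 to 15.2 in the authors' lists.

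The 5 longest knockdown-only members were 716 to 1421 bp long. The longest, chr1:154051335-154052755 in NUP210L, had 1359, 885 and 639 bp in the knockdown libraries. In CDC42EP2, an effector of the small GTPase CDC42, chr11:65321755-65322787 had 625, 833 and 584 bp. The member chr17:5219459-5220312 in SCIMP, an adaptor of antigen-presenting cells, had 689, 727 and 824 bp. The other 2 lay outside protein-coding genes, at chr2:27359385-27360274 within the lncRNA gene GTF3C2-AS2 and at chr5:141763678-141764393 within LOC124901094.

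Control-only members fell in 108 protein-coding genes and knockdown-only members in 16, with 0 genes holding both kinds. EEIG1 and STAT3, a transcription factor of cytokine signalling, held 3 control-only members each. CLDN7, a tight-junction claudin, EFNA3, JUP and RHOA, a small GTPase of the cytoskeleton, were among those holding 2. Control-only members outnumbered knockdown-only members on 16 of the 18 chromosomes with members, the reverse held on 1 and the counts were equal on 1. Among the other regions 3683 were control-only and 2068 knockdown-only, and these were not counted by chromosome. Chromosome 19 held 1088 members, 24.2% of all, and members made up 36.2% of its merged regions.

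Chaining members at gaps of at most 500 kb gave 69 neighbourhoods, of which 48 had at least 20 members and held 4325 of them. Mean presence was lower in the knockdown group in 46 of the 48 and higher in 2. In 28, or 58.3%, every knockdown library lay below every control library, and in 0 above. Over 2276 windows of 1 Mb with at least 20 merged regions the same was true of 13.1% and 0.527%. Mean presence was lower in the knockdown group in 1340 of these windows and higher in 901. The median difference was −12.6 percentage points over the 48 neighbourhoods and −1.93 over the windows. All neighbourhoods share the same 6 libraries, so they are not independent of each other.

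The largest neighbourhood, chr11:63783776-67847070, held 414 members among 157 protein-coding genes, including FLRT1, an adhesion protein of neurons, and RIN1, a regulator of RAS and RAB5. Its presence was 80.0%, 74.2% and 68.4% in the control libraries and 59.7%, 55.3% and 58.9% in the knockdown libraries. The next, chr1:154666189-156722622, held 219 members, and its means were 74.3% ± 6.98 and 62.1% ± 2.54 (SD, n = 3 each); EFNA1, an ephrin, and CRABP2 were among its best covered genes. On chromosome 19 the spans 9826363 to 13173214 (NFIX, ELAVL3), 48121758 to 51702612 (SYNGR4, PTOV1) and 17076782 to 19420978 (CRTC1, SSBP4) held 186, 186 and 183 members. Their differences were −16.7, −17.4 and −12.2 percentage points. On chromosome 17, 74599005 to 76387520 (NHERF1, UNC13D) and 41390565 to 43163895 (PLEKHH3, KRT17) held 179 and 151 members, with differences of −15.8 and −14.6. The other 3 of the 10 largest were chr16:66694419-68158114 (HSF4, EXOC3L1), chr1:149844530-151662400 (MLLT11, CERS2) and chr16:29584354-31452018 (CORO1A, MAZ), with 135, 134 and 126 members and differences of −15.8, −11.4 and −11.6. In none of the 10 did the libraries of the groups overlap, and together they held 1913 members, 42.5% of all.

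**Figure D3:**
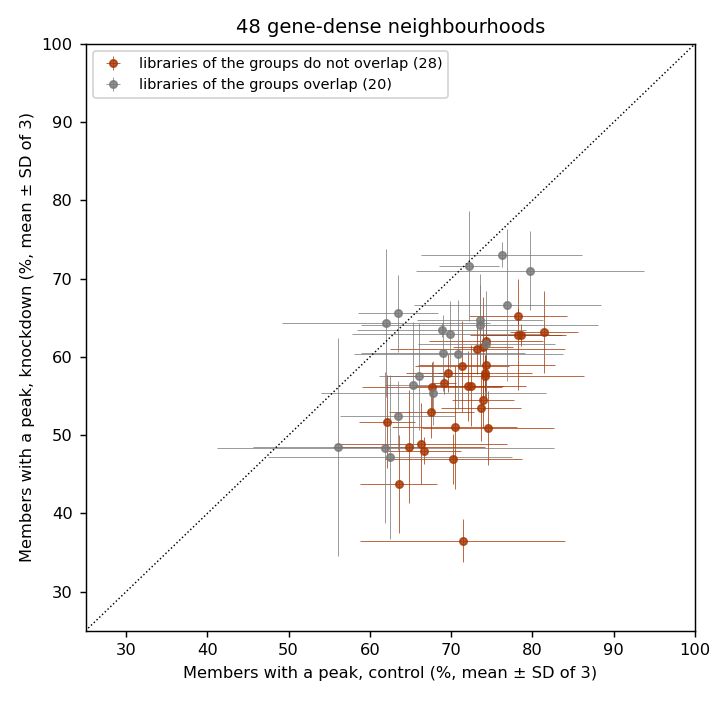
Percent of members with a peak in the control group (x axis) and the knockdown group (y axis) for the 48 neighbourhoods with at least 20 members, as mean ± SD of 3 libraries, with the line of equality dotted. Points lie below the line in 46 neighbourhoods, and red marks the 28 in which the libraries of the groups do not overlap.

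At the scale of whole 1-Mb windows, coverage by peaks was tested with limma over 2105 windows, of which 55 were gene-dense. With Benjamini-Hochberg adjustment at 0.05, 0 windows were called in either direction, a background of 0%. Unadjusted p under 0.05 was reached by 12 gene-dense windows, or 21.8%, against 16% of all. Relative to each library's median, the estimate was above 0 in 1 of the 55 and in 50.7% of all windows, and the median log2 difference was −0.24 against 0.00. The shift was not limited to gene-dense windows. At 20 to 29 genes, chromosome ends included, the estimate was above 0 in 3 of 104 windows, with a median of −0.16. At 10 to 19 genes it was above 0 in 103 of 372, with a median of −0.085. The gene-dense window of smallest p was chr5:140000001-141000000, which holds the alpha protocadherins, adhesion proteins that give neurons their identity, including PCDHAC2. It was covered to 2.41%, 3.29% and 2.47% in the control libraries and 2.23%, 1.58% and 1.95% in the knockdown libraries, a log2 difference of −0.32 with an SE of 0.07 (adjusted p = 0.205 by limma). The next 2, chr11:66000001-67000000 around RIN1 and chr2:27000001-28000000 around EMILIN1, had log2 differences of −0.36 and −0.21. Leaving out control 2 led to 36 of the gene-dense windows being called lower, among 239 higher and 242 lower of all 2064 windows then tested. Leaving out any other library led to 0 gene-dense calls. When that library was control 1, the estimate was above 0 in 11 of the 55 and the median log2 difference was −0.10.

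The groups overlapped in peak width. The median width of peaks in members was 520, 528 and 516 bp in the control libraries and 521, 505 and 516 bp in the knockdown libraries (exact permutation p = 0.5). The difference from the median of the other peaks in the same list was −9 ± 7.21 bp in controls and −9.67 ± 5.86 bp in knockdowns (SD, n = 3 each, exact permutation p = 1). In all 6 libraries together, members' peaks were narrower than the others, with means of 517.7 and 527 bp (6 of 6 libraries, exact sign-flip p = 0.03125, adjusted p = 0.0417 over 4 measures). That difference was no longer under 0.05 with a stricter q-value, with equal peak numbers, over 5 Mb from the ends, at 40 genes or without chromosome 19, and it reversed to 3.58 bp when 20 genes sufficed. Their median −log10 q-value was lower by 0.861 (6 of 6, the same exact p). That p is the smallest that 6 libraries allow. The q-value difference was no longer under 0.05 when 20 genes sufficed or without chromosome 19. Summits lay in protein-coding genes in 67.3% of members' peaks and 59.0% of the others, a description only, since the rule chose members by nearby genes. Bases under peaks per Mb of genome were 28.7 and 31.3 kb, lower in 5 libraries and higher in control 1 (exact p = 0.3125). The genome that meets the density rule measured 72.05 Mb, or 2.51%.

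Among 1657 members with a peak in all 6 lists, limma called 6 narrower in knockdown (0.362%, against 0.195% of all 70776 regions tested) and 2 wider (0.121%, against 0.129%). Unadjusted p under 0.05 was reached by 15.6% of members and 14.3% of all. The estimate was above 0 in 530 members, 32.0%, and in 50.5% of all regions. When 20 genes sufficed, which adds regions below the limit, it was above 0 in 1691 of 4791. The median log2 difference was −0.088 there and −0.096 in members. None of the 8 calls held when any single library was left out, where 0 of all regions tested were called.

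CRABP2, which carries retinoic acid to its nuclear receptor, held the longest of the narrowed members, chr1:156703246-156707238. Its peaks summed to 3169, 3638 and 2913 bp in the control libraries and 1301, 1251 and 1265 bp in the knockdown libraries. The groups were far apart (log2 difference −1.31 with an SE of 0.09, adjusted p = 0.0329 by limma). The knockdown peaks began at least 2662 bp to the right of the first control base, and the last knockdown base lay 28 bp from the last control base. Leaving out control 3 changed the joined region, and the value over the largest region left there was −0.19; without control 2 it was −0.73.

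In S100A2, chr1:153565642-153567233 was covered over 1576, 1477 and 1586 bp in the control libraries and 707, 537 and 637 bp in the knockdown libraries. The groups did not overlap (log2 difference −1.28 with an SE of 0.14, adjusted p = 0.0408 by limma). The knockdown peaks started 679 bp further right than the control peaks, outside the promoter window described above, which the control peaks covered. SLC38A12 held chr17:74795427-74798759, with 3283, 3332 and 3289 bp against 1846, 1428 and 1671 bp; 1 peak in each control list faced 2 in each knockdown list. NHERF1, a scaffold of membrane transporters, held chr17:74749519-74751998, with 2457, 2283 and 2026 bp against 999, 1005 and 1021 bp. Both lay in the same neighbourhood on chromosome 17 as the longest control-only member.

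The last 2 narrowed members were short. At chr19:39111469-39112671 in ACP7, an acid phosphatase, widths were 1203, 1116 and 1096 bp in controls and 313, 324 and 456 bp in knockdowns. The peak of knockdown 1 lay at the right end of that member and those of knockdowns 2 and 3 at the left end. At chr17:42667685-42668799 in PLEKHH3, they were 1105, 1054 and 1115 bp against 474, 312 and 398 bp. Log2 differences over these 4 further members ran from −1.63 ± 0.18 (ACP7) to −0.98 ± 0.10 (SLC38A12; SE, limma adjusted p = 0.0408 and 0.0404).

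Of the widened members, chr1:154750674-154752243 lay in KCNN3, a calcium-activated potassium channel, with 800, 754 and 777 bp in controls and 1515, 1489 and 1544 bp in knockdowns. The knockdown peaks reached 719 bp further right, and the log2 difference was 1.00 with an SE of 0.12 (adjusted p = 0.0408 by limma). The other, chr3:48997289-48998739 in P4HTM, a transmembrane prolyl hydroxylase, had 707, 796 and 702 bp against 1347, 1193 and 1451 bp. It reached 564 bp further left in the knockdown lists (log2 difference 0.89 with an SE of 0.12, adjusted p = 0.0450 by limma).

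**Figure D4:**
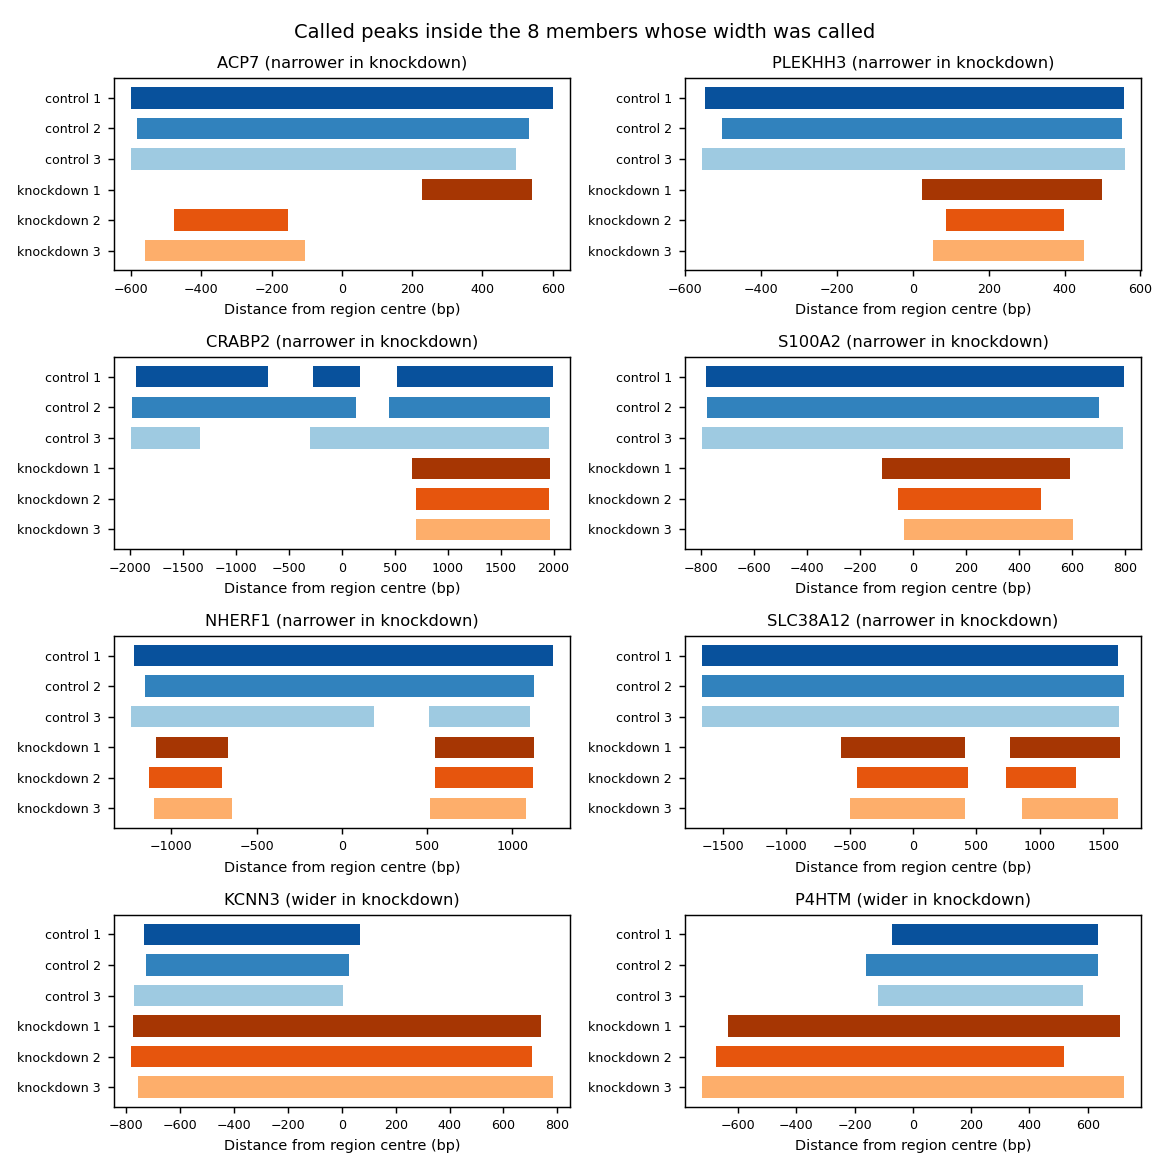
Called peaks (bars) of each library (rows) inside the 8 members whose width was called, against the distance from the region centre in bp (x axis), with controls in blue and knockdowns in orange. Knockdown bars are shorter in 6 panels and longer in KCNN3 and P4HTM, and in SLC38A12 each knockdown library has 2 peaks where each control library has 1.

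The widest members present in every list were broad domains whose knockdown peaks were not called different. In MLLT1, a reader of acetylated chromatin, chr19:6232911-6244605 held 11607, 11167 and 10317 bp in controls and 9827, 8399 and 7948 bp in knockdowns. In EEIG1, chr9:127968433-127975949 held 7277, 6325 and 7023 bp against 5302, 4784 and 6292 bp. In both, all knockdown widths lay below all control widths. The member over the lncRNA gene NEAT1, which scaffolds paraspeckles, chr11:65426237-65432327, held 3847, 6066 and 4672 bp against 4661, 3189 and 3437 bp, and the groups overlapped. KCNH2 held chr7:150960082-150966068, with 5737, 5871 and 5620 bp against 5186, 5049 and 5545 bp. There too, all knockdown widths lay below all control widths. The fifth, chr11:64100293-64106110 in MACROD1 and FLRT1, held 5069, 5749 and 4763 bp against 5127, 4178 and 5057 bp, and the groups overlapped.

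Gene coverage is the percent of a gene's length under called peaks. There were 2816 gene-dense protein-coding genes with a median length of 9189 bp, and 54.5% of them had no peak in any list. Elsewhere the median length was 29786.5 bp and 30.4% of genes had no peak. Of the gene-dense genes, 890 were at least 5 kb long with a mean coverage of at least 1% and were tested with limma among 9903 genes. Called at an adjusted p under 0.05 were 9 lower in knockdown (1.01%, against 0.505% of all) and 3 higher (0.337%, against 0.172%). Unadjusted p under 0.05 was reached by 16.6% of the 890 and 13.5% of all, and the median log2 difference was −0.17 against 0.02. When 20 genes within reach sufficed, the median was −0.12 over 1949 genes. Leaving out control 1 gave −0.05 over 845 gene-dense genes. Of the 12 called genes, 10 were listed at 0 in every library of 1 group and passed the coverage minimum through the other group only, so nothing is read from the called shares. Without control 3, 0 were called higher and 2 lower, against 4 and 7 of all 9946 genes then tested.

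Among the 2 called genes with peaks in both groups, CRABP2 was covered to 35.4%, 43.0% and 31.4% in the control libraries and 6.59%, 5.97% and 6.89% in the knockdown libraries. The groups were far apart (log2 difference −2.22 with an SE of 0.10, adjusted p = 0.00203 by limma). With the stricter q-value the adjusted p by limma was 0.138. EML2, a microtubule-associated protein, was covered to 6.98%, 7.58% and 5.88% against 2.21%, 1.85% and 1.22% (log2 difference −1.41 with an SE of 0.18, adjusted p = 0.0276 by limma). The call for EML2 did not hold without any single library.

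The other 7 lower genes had 0% in all knockdown lists. CD37, the B-cell tetraspanin, was covered to 20.3%, 8.73% and 6.38% in the control libraries. EFNA3, an ephrin that guides axons, had 13.4%, 8.49% and 7.84%. KCNK4, the leak potassium channel TRAAK, had 9.29%, 9.84% and 7.98%. CLIC1, an intracellular chloride channel of the major histocompatibility complex, had 7.75%, 5.92% and 6.81%. ENO2, the neuronal enolase and a marker used in neuroblastoma, had 6.98%, 3.96% and 9.43%. GNAT1, the transducin of rod photoreceptors, had 5.16%, 6.11% and 6.60%. ATP5PD, a subunit of mitochondrial ATP synthase, had 4.01%, 6.73% and 4.37%. Since the coverage minimum admitted them through the controls alone, these values are a description.

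The 3 higher genes had 0% in all control lists. PRRG2, a membrane protein with a vitamin K-dependent domain, was covered to 5.24%, 3.71% and 6.06% in the knockdown libraries. SNX21, a sorting nexin, had 3.47%, 3.17% and 3.55%. SCIMP had 2.66%, 2.80% and 3.18%, and it holds the knockdown-only member named above. The coverage minimum admitted them through the knockdown lists alone, so these values too are a description.

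**Figure D5:**
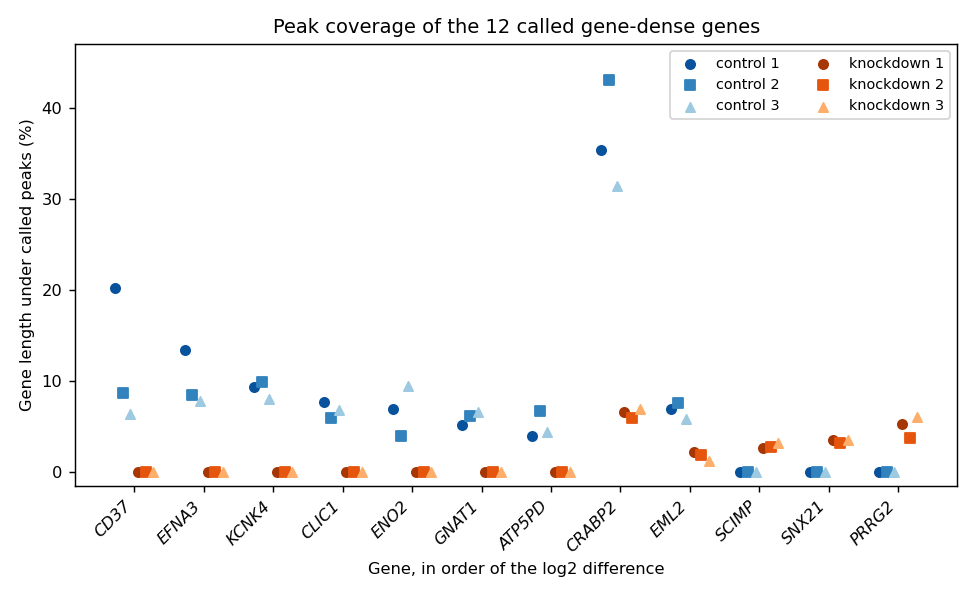
Percent of gene length under called peaks (y axis) in each of 6 libraries for the 12 gene-dense genes called by limma (x axis), with controls in blue and knockdowns in orange. CRABP2 and EML2 have peaks in both groups, with CRABP2 at 31.4% to 43.0% against 5.97% to 6.89%, and the other 10 genes are at 0% in 1 group.

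None of the 5 best covered gene-dense genes was called. KCNH2, the hERG potassium channel, was covered to 62.2%, 59.6% and 56.7% in controls and 54.1%, 50.5% and 58.8% in knockdowns, and the groups overlapped (limma adjusted p = 0.934). FLRT1 and MACROD1, an ADP-ribose hydrolase whose gene contains FLRT1, had means of 47.8% ± 2.92 and 40.2% ± 2.97 in controls and 42.9% ± 2.43 and 34.6% ± 1.85 in knockdowns (SD, n = 3 each). CHRM1, a muscarinic acetylcholine receptor, had 44.5%, 40.2% and 35.3% against 38.3%, 33.8% and 35.5%. NHERF2 had 35.8% ± 2.46 against 35.7% ± 0.839 (SD, n = 3 each). Adjusted p by limma ran from 0.682 to 0.934 over the 5.

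Gene families that sit in such neighbourhoods differed in whether they carried peaks at all. Over all 2816 gene-dense genes 54.5% had none, and the family counts do not take gene length into account. None of 97 gene-dense olfactory receptor genes and none of 80 keratin-associated protein genes had a peak in any list. Among 53 gene-dense keratin genes, which encode the filaments of epithelia, 7 had one. KRT17 was covered to 14.1%, 13.2% and 12.5% in controls and 26%, 16.7% and 26.3% in knockdowns; the groups did not overlap, and limma did not call it (adjusted p = 0.108). KRT19 had means of 21.6% ± 10.1 and 20.3% ± 5.35 (SD, n = 3 each). Of 55 replication-dependent histone genes, 5 had a peak, among them H2BC4 with 13.0% ± 7.26 and 13.3% ± 6.27. Only 1 of 15 kallikrein genes (KLK15), 1 of 29 leukocyte and killer cell receptor genes (LILRB3) and 0 of 7 CEACAM and PSG genes had one.

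In the major histocompatibility complex, 4 of 19 gene-dense antigen presentation genes and 13 of 45 class III genes had a peak. HLA-C, a class I antigen, is too short to have been tested and was covered to 11.8%, 10.3% and 13.5% in controls and listed at 0 in the knockdowns. TAPBP, which loads peptides, had 6.33%, 2.76% and 2.89% against 2.2%, 2.95% and 2.47%, with overlap. In class III, 9 genes were tested, 1 was called lower (CLIC1) and 0 higher, against 0.505% and 0.172% of all 9903 genes. CLIC1 was listed at 0 in every knockdown library and passed the coverage minimum through the controls only, so nothing is read from this count. HSPA1L, a heat shock protein, had 16.8% ± 2.34 against 14.2% ± 7.20 (SD, n = 3 each). Of 50 gene-dense genes of the epidermal differentiation complex, which build the skin barrier, 6 had a peak, most of them S100 genes. S100A4 was covered to 51.6%, 50.9% and 49.5% in controls and 46.6%, 45.1% and 44.9% in knockdowns, and was too short to be tested.

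Of 16 gene-dense synaptic vesicle and release genes, 13 had a peak, 11 of them in all 6 lists, and limma called 0 of the 13 tested, with 5 estimates above 0 and 8 below. UNC13D, which primes vesicles, had 20.3% ± 2.61 against 14.3% ± 2.38 (SD, n = 3 each; limma adjusted p = 0.347). SYNGR4 had 34.1% ± 3.70 against 29.6% ± 4.16, and DNM2, a dynamin, 9.51% ± 1.24 against 8.52% ± 0.627. Among gene-dense voltage-gated channel genes, KCNH4, a potassium channel, had 6.67% ± 0.738 against 6.47% ± 0.416 (SD, n = 3 each). Among housekeeping families, 7 of 17 ribosomal protein genes, 4 of 14 mitochondrial ribosomal protein genes, 2 of 9 proteasome genes and 3 of 4 RNA polymerase II genes had a peak. Only 2, 1, 0 and 1 of them, in the same order, were tested by limma, and 0 were called. Of 78 gene-dense zinc finger genes, 39 had a peak and 28 were tested, with 0 called, 10 estimates above 0 and 18 below.

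Both gene-dense genes of the enzymes that write or oxidise cytosine methylation had peaks in all 6 lists. DNMT1, the maintenance methyltransferase, was covered to 5.57% ± 0.418 in controls and 5.63% ± 0.593 in knockdowns (SD, n = 3 each; limma adjusted p = 0.710). TET3, which oxidises 5-methylcytosine, had 5.08% ± 0.428 against 5.21% ± 0.624 (SD, n = 3 each; limma adjusted p = 0.692). Limma called neither gene.

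Promoter windows with a peak were fewer in the knockdown lists both inside and outside gene-dense neighbourhoods. In gene-dense ones the percents were 6.08, 4.31 and 4.48 in the control libraries and 3.68, 3.15 and 3.24 in the knockdown libraries. The groups did not overlap, with means of 4.96 ± 0.978 and 3.36 ± 0.285 (SD, n = 3 each, exact permutation p = 0.1). Elsewhere the means were 7.97 ± 0.596 and 6.13 ± 0.504, also without overlap (exact permutation p = 0.1). The promoter table is not complete, so these percents cover only the genes in it.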

How the data were processed

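The 6 deposited peak lists, 3 control and 3 knockdown, give for each peak a position, summit, score, fold enrichment (a ratio), −log10 p-value and −log10 q-value, all of them the authors' values. The submitters' processing notes name hg38, MACS2 2.2.6, Bowtie2 2.4.4 and SAMtools, without saying what each did. The deposited score was not used. The input library was not analysed here. Members and gene lists were chosen with earlier results of these data known.

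Overlapping or adjoining peaks of chromosomes 1 to 22 were merged, and genes, promoter windows and sequences came from RefSeq tables of GRCh38.p14, the same build. Covered bp of merged regions with a peak in all 6 lists were tested as log2(bp). Percent covered of genes of at least 5 kb and of 1-Mb windows, with a mean of at least 1%, was tested as log2(percent + 1), which understates changes of sparsely covered genes. Each library was centred on its median deviation. Differences were tested by limma 3.58.1 (R 4.3.3) with a trend in the variance, fitted on all features, with Benjamini-Hochberg adjustment at 0.05, and were tested on simulated data. Single values were compared by two-sided exact permutation over the 10 splits of 6 libraries, and members with other regions by exact sign flips, in Python 3.11.15 with scipy 1.17.1. Named were the 5 longest group-specific members of each kind, the 5 widest in all lists, the 10 largest neighbourhoods, all called members and genes, the 5 best covered genes, the leading genes of each list, and 9 promoters. Alternatives were a stricter q-value, equal peak numbers, another joining rule, other density and end limits, no chromosome 19, each library left out, a replicate block, and other centring, pseudocounts and filters. Exons, introns and the sequence of peaks were not analysed here. A few items that the naming rule selects are not reported here.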

Additional observations from a re-analysis of the deposited data

How the results depend on the processing

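Differences between groups in the share of covered bases, in the percent of members with a peak, in median width and in dense promoter windows kept their direction under every alternative tried for them, and none could pass 0.05 with so few libraries. Requiring at least 20 genes gave 470 control-only and 88 knockdown-only members, and at least 40 gave 53 and 6. Leaving out each library gave 230 to 301 and 27 to 64, since fewer libraries then have to agree. Called widths numbered 3 higher and 19 lower at 20 genes and 0 and 0 at 40 (91 and 138 of all 70776 regions in both). Without centring they numbered 1 higher and 6 lower (32 and 91 of all 70776). When any 1 library was left out, 0 of either kind were called, in members and over all regions alike. Called genes numbered 7 higher and 23 lower at 20 genes, 1 and 3 at 40 (17 and 50 of all 9903 genes in both), 14 lower with the stricter q-value (89 of all 9300 genes), 16 lower without centring (90 of 9903), 14 lower without the coverage minimum (64 of 11848), and 6 higher with centring within density classes (23 of 9903), an alternative chosen after seeing the data. Without each library in turn, called genes numbered 0 to 6 higher and 2 to 19 lower, among 4 to 36 higher and 7 to 68 lower of all genes. Lower 1-Mb windows numbered 0 to 36 when each library was left out, the 36 without control 2, where 242 of all 2064 windows were lower.

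The labels number replicates 1 to 3 in both groups. Over regions, same-numbered libraries did not deviate together (correlations of −0.14, −0.08 and 0.00). Over 1-Mb windows their correlations were −0.73, −0.45 and 0.13, and those of differently numbered libraries ranged from −0.57 to 0.77. Such values cannot show whether same-numbered libraries shared a culture or batch. With the replicate block, 0 higher and 0 lower widths and 0 higher and 0 lower genes were called, in members and over all features.

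Within libraries, the members' width difference of −9.33 bp was −5.17 with the stricter q-value, −6.25 with equal peaks, −12.0 at 40 genes, −8.92 over 5 Mb from the ends and −6.17 without chromosome 19, no longer under 0.05, and 3.58 at 20 genes, a reversal. The −log10 q difference was −0.318 at 20 genes and −0.744 without chromosome 19, no longer under 0.05 in either (exact sign-flip p = 0.25 and 0.0625). Bases per Mb reversed to 1.54 kb at 20 genes. With 5 libraries the smallest p is above 0.05, and these differences ranged from −10.6 to −7.80 bp, −0.996 to −0.763 and, for summits in genes, 8.22 to 8.50 points. The group difference in relative width reversed to 3.00, 2.17 and 2.33 bp with the stricter q-value, with equal peaks and without chromosome 19, and ranged from −4.67 to 2.33 when each library was left out. The cause of these changes was not tested. Read depth is unknown, so a weak peak missed at low depth and an absent one look the same.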

Other observations

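Of 191 miRNA hairpins in gene-dense neighbourhoods, 13 overlapped a peak in at least 1 list. Over all 1461 autosomal hairpins in the RefSeq table, 181 did. Hairpins of MIR25 and MIR106B, which lie side by side on chromosome 7 and share a primary transcript, were covered in full in all 6 lists (84 and 82 bases). The same was true of MIR375, known from endocrine and neuroendocrine cells, with 64 bases, and of MIR5193, MIR4492 and MIR935, with 109, 80 and 91 bases. MIR425 was covered over 87 bases in 5 lists and by no peak in knockdown 2. MIR6865 was covered over 65 bases in controls 1 and 2 only. MIR6758 was covered over 63 bases in knockdowns 2 and 3 only, and MIR4321 over 38 and 80 bases in knockdowns 1 and 3 only. These were described after their values were seen and were not tested.

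Control 1 stood apart in what it alone held. Of the members, 394, or 8.75%, had a peak in control 1 only, against 2.90% of the other regions. For control 2 the order was the opposite, at 2.84% of members and 6.67% of the others. The knockdown libraries lay between 1.89% and 2.62% of members. These shares were not tested.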
